A study of Mus musculus with 31 samples.

Results

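The genes described here are 115 genes that dexamethasone raised in LPS-stimulated mouse macrophages and that were lower when a BRD9 degrader was given together with dexamethasone. They were chosen from measured values, out of 35275 gene identifiers of which 12662 had enough reads to be tested. CPM values (a library's counts scaled to its size, with TMM factors) were averaged over the 3 libraries of a group and 0.5 was added. A gene was taken where this value was 5 or more in the Dex + LPS group, at least 1.5 times that of the LPS group, and at most 0.75 of it remained in the Dex + dBRD9 + LPS group. In all, 122 genes met these limits, and 7 of them belong to 12 genes that the choice left out by name, among them Fpr1, Fpr2, Stab1, Siglec1 and Cd163. The Dex + LPS group enters both ratios, so a gene that was high there by chance was more likely to be taken. Both ratios are therefore given as a description with no test. Comparisons that share a group with the choice are marked as a description, and the others use libraries that the choice did not.

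Bone marrow of male C57BL/6J mice aged 6 to 12 weeks was cultured in L-929 conditioned medium to give macrophages, and bulk RNA sequencing of these cells gave 31 libraries in 2 experiments. Dex (dexamethasone, 1 µM), dBRD9 (a degrader of BRD9, 250 nM) and iBRD9 (an inhibitor of the BRD9 bromodomain, 3 or 10 µM, the dose of each sample not being labelled) were given overnight, alone or in combination, before LPS at 100 ng/ml for 3 h. Experiment 1 had 7 groups of 3 libraries: vehicle, then LPS after nothing else, after Dex, after iBRD9, after dBRD9, after both Dex and iBRD9, or after both Dex and dBRD9. Experiment 2 had 5 groups of 2 libraries: vehicle, IFNg + LPS, Dex + IFNg + LPS, dBRD9 + IFNg + LPS and Dex + dBRD9 + IFNg + LPS, and no dose or time of interferon gamma (IFNg) was given in the sources used here. The labels do not say that replicates came from separate mice or cultures, so p-values measure only the spread between libraries, which may be technical.

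Dexamethasone is a synthetic agonist of the glucocorticoid receptor, a nuclear receptor that moves to the nucleus when a ligand binds and then raises or lowers the transcription of its targets. In macrophages glucocorticoids are known to damp inflammatory cytokines and to raise scavenger receptors, lectins and other genes of a resolving state. BRD9 is the bromodomain subunit of the non-canonical BAF complex, which remodels nucleosomes, and a degrader removes the protein whereas an inhibitor blocks its bromodomain.

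Promoter windows in RefSeq (GRCm38.p6, 250 bases before to 50 after a start) were matched by symbol for 93 of the 115 members, with 131 windows. The letters AGAACA, the half-site of the glucocorticoid receptor's DNA element, were found on either strand in 24.4% of these windows and in 19.0% of all 32851 windows of the same length. The inverted repeat of the half-site with 3 bases between was found in 0 member windows and in 0.00913% of all windows. TGANTCA, bound by AP-1, was in 11.5% of member windows and 7.81% of all, and GAGGAAGT, a PU.1 element, in 3.82% and 3.2%. Some windows of 1 gene overlap and share their matches. Below are the windows of Cd38, whose fall with the degrader kept its call without any 1 of the 4 libraries compared, and of Mefv, Cp and Emilin1, 3 other members that fell in experiment 2 and hold the half-site, which is in capitals. They lie at chr5:43868559-43868858 (plus strand), chr16:3718075-3718374 (minus strand), chr3:19956804-19957103 (plus strand) and chr5:30913536-30913835 (plus strand).
Cd38: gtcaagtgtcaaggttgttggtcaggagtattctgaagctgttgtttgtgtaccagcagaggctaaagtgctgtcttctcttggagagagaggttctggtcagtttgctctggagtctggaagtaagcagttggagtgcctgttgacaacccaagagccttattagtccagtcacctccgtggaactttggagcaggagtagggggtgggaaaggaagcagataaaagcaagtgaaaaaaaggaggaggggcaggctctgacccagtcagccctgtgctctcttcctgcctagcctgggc
Mefv: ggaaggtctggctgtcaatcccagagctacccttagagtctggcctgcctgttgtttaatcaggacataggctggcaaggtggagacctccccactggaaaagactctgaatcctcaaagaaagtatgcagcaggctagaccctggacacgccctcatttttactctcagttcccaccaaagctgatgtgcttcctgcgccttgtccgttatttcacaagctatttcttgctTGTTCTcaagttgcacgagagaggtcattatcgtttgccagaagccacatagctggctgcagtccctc
Cp: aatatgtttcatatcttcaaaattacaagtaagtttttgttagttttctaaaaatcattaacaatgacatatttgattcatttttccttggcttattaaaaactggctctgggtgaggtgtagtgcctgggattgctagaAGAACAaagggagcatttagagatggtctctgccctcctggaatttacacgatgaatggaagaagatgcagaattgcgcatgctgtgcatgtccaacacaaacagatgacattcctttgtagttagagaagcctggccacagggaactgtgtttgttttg
Emilin1: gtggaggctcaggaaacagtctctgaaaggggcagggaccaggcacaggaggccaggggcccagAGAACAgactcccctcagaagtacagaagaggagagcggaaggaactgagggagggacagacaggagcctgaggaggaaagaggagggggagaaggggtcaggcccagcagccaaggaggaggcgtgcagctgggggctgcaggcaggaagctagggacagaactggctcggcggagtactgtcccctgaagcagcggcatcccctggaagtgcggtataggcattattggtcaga
The half-site begins at position -18 relative to the start in Mefv, where it reads on the opposite strand, at -110 in Cp and at -186 in Emilin1, and the Cd38 window holds none of the 4 motifs. The last 3 windows were picked because they hold the half-site, and another window of Cp does not. Of the other members that fell in experiment 2 and have a window, Fam53b, Pla2g7 and 1700071M16Rik hold it in a window. Nr1h3, Tns1, Fgr and Nod1 hold it in none. A match of letters is a description and no evidence of binding.

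Depth was 19.3 to 29.9 M counts per library in experiment 1 and 14.5 to 17.9 M in experiment 2. The 10 macrophage markers, among them Adgre1, Csf1r and Lyz2, had reads in every group and summed to between 13207 and 28272 CPM in experiment 1 and between 13295 and 15359 in experiment 2. In experiment 1 the sum was 28059 to 28272 with Dex + LPS and 24670 to 27707 with dBRD9 added. In experiment 2 it was 13295 to 14177 with Dex + IFNg + LPS and 15084 to 15140 with dBRD9 added. These sums were not tested. In experiment 1, the first Dex + LPS and the first Dex + dBRD9 + LPS library stood apart: their deviations from the group mean fell with gene length (Spearman's rho over 8811 genes, -0.655 and -0.483), against 0.296 to 0.583 in the other libraries of these groups. In experiment 2 (8734 genes) the Dex + IFNg + LPS libraries stood at 0.529 and -0.529 and the vehicle libraries at -0.608 and 0.608, where the values of a pair mirror each other because its mean is taken over 2, and those of the other groups were at most 0.253 in size. Without both libraries the same limits gave 114 genes, of which 103 were among the 115. BRD9 protein was not measured, and the mRNA of Brd9 does not report on its degradation.

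**Figure D1:**
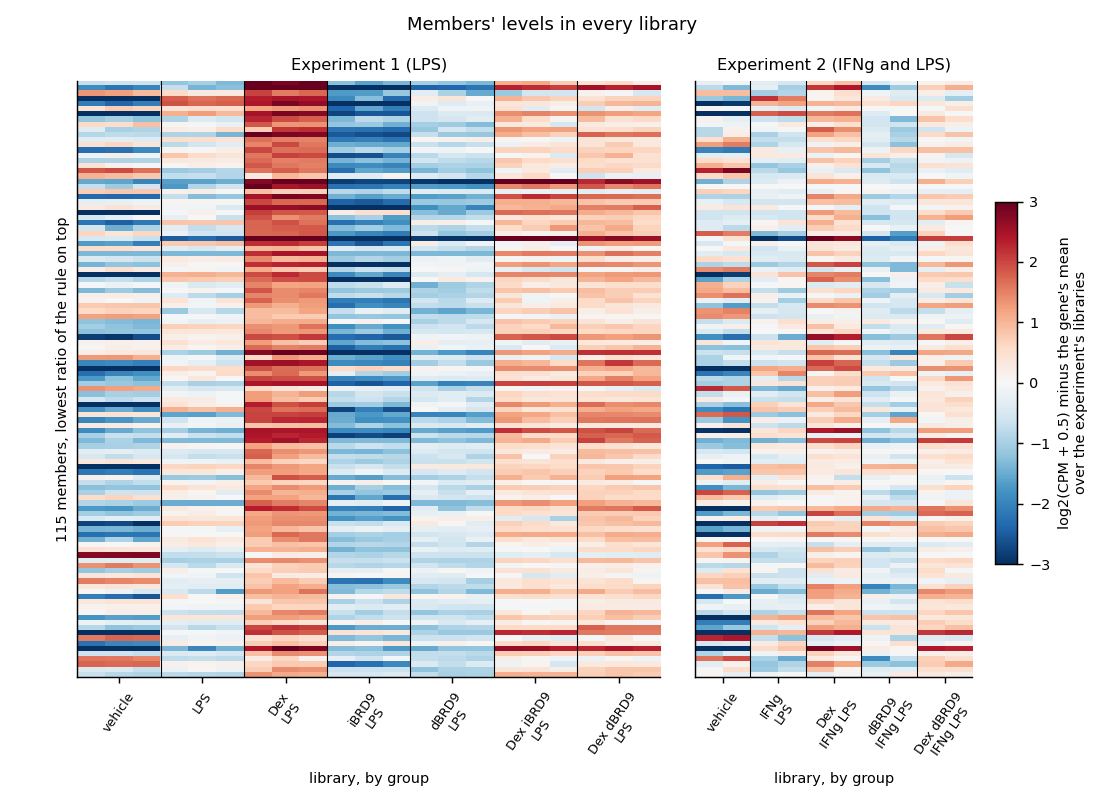
Levels of the 115 members in each of the 21 libraries of experiment 1 (left) and the 10 of experiment 2 (right), as log2(CPM + 0.5) minus the gene's mean over the libraries of that experiment, with colours saturating at 3 above and below. Rows run from the lowest ratio of Dex + dBRD9 + LPS to Dex + LPS (0.167, Tg) at the top to the highest (0.75, Apoe); the Dex + LPS columns on the left were used to choose the rows.

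The members cover a wide range of the 2 ratios. The rise with Dex ran from 1.5-fold (Mmp19, a metalloprotease) to 62.6-fold (Tns1, which links integrins to actin), and the share left with the degrader from 0.167 (Tg, thyroglobulin) to 0.75 (Apoe, the lipoprotein component). Just inside the limit on the second ratio were Apoe (0.75), Plxna2 (0.749) and Mmp19 (0.748), and just outside were Pim3 (0.751), Tmem200b (0.753) and Clec4a1 (0.753). Mmp19 and Pot1b were just inside the limit on the rise (1.5 both), and Tmem119 (1.49) just outside. Ston1 (5.1) was just above the minimum level and P2ry13 (4.98) just below. By annotation 113 members are protein coding, their median exon length was 3806 bases against 4265 for all genes tested, and 38 share exon bases with another gene, so that without known strand their reads cannot be fully assigned.

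In the libraries that the choice did not use, 13 members were lower and 0 higher with dBRD9 on top of Dex (edgeR quasi-likelihood test, experiment 2, adjusted p under 0.05 over 13313 genes). Of the 115 members, 110 had enough reads there to be tested. Among the 13 are Cd38, Hp, Nr1h3, Tns1, Fgr, Fam53b, Mefv, Cp, Emilin1, Nod1, Pla2g7 and 1700071M16Rik. The last of these had enough reads only through the Dex + IFNg + LPS group, where it is high. Among all genes 1.16% were called lower and 0.233% higher. The members called lower make up 11.8% of those tested. The median log2 fold change of the 110 members tested was -0.19 (all genes, 0.01), and 78 of 110 lay below 0, against 49.2% of all genes. All libraries with the degrader were below both Dex libraries for 59 members, as for 23.5% of all genes, and above them for 8. At an unadjusted p under 0.05, 36 members were lower and 1 higher, and DESeq2 called 17 lower and 0 higher. No share of all genes is given for these counts or for the 8 members above, so they are a description.

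The 5 members not tested in experiment 2 were Tg, Apoc2, Rasgrf1, Hif3a and B430305J03Rik, with 0 to 40 reads over its 10 libraries. Of the 110 tested, 82 reached the minimum of 10 counts in every group and 9 in no group but those with Dex, so that these 9 had to be higher with Dex to be tested at all. The called 1700071M16Rik is among these 9. It reached the minimum only in the Dex + IFNg + LPS group (3.29 and 2.3 CPM, against 0.204 and 0.463 with the degrader). The filter therefore favoured its fall, and its call is no support. Of the 101 others 12 were lower and 0 higher with the degrader, with a median log2 fold change of -0.18. Leaving out 1 library of the 4 compared left 2 calls (without either Dex + dBRD9 + IFNg + LPS library), 3 (without the first Dex + IFNg + LPS library) or 12 (without the second). These are the pair with length trends of 0.529 and -0.529, whose part in the calls was not tested. Cd38 kept its call each time, and 11 of the 13 lost it at least once.

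**Figure D2:**
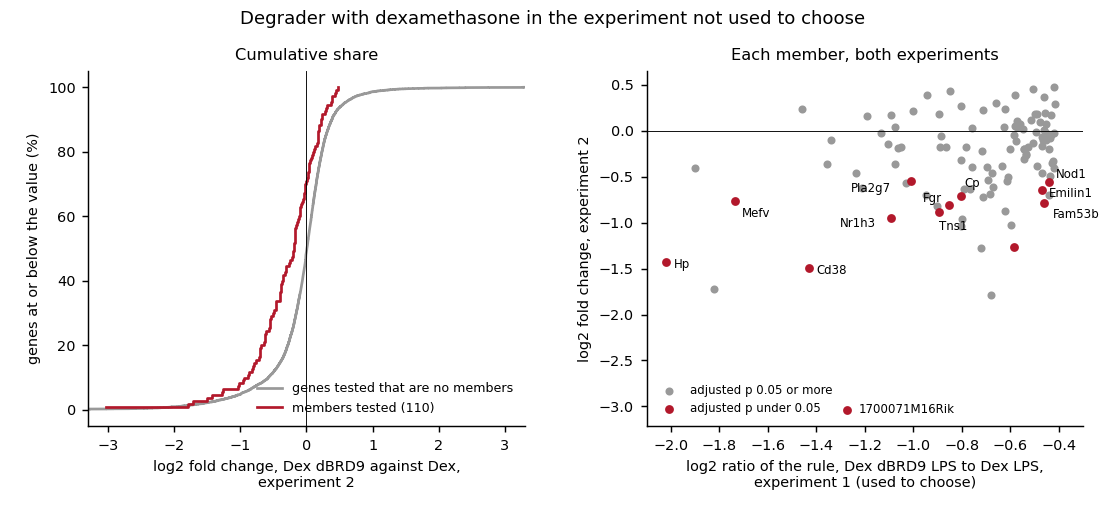
Left, share of genes at or below each log2 fold change of Dex + dBRD9 + IFNg + LPS against Dex + IFNg + LPS, for the 110 tested members (red) and the other genes tested (grey). Right, each tested member by its log2 ratio in experiment 1, which chose it, and its log2 fold change in experiment 2, with the 13 called in red; 78 of 110 points lie below 0.

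Among the enzymes of nucleotides, amino acids and other small molecules, 1 of 12 members fell in experiment 2. Cd38, a surface enzyme that consumes NAD, had 30.1 and 31.2 CPM in the Dex + IFNg + LPS libraries and 12.0 and 9.78 with the degrader added. Its log2 fold change was -1.50 (SE 0.16, adjusted p = 0.00013 by edgeR), and no library overlapped. With IFNg + LPS and no Dex, Cd38 had 35.4 and 39.3 CPM, and the difference with Dex did not pass the test (log2 fold change -0.26, SE 0.15, adjusted p = 0.25 by edgeR). The degrader without Dex gave 7.43 and 9.92 CPM, a fall of 2.10 on the log2 scale (SE 0.17, adjusted p = 4.4e-06 by edgeR). In experiment 1 Cd38 had 13.7, 15.7 and 12.9 CPM with LPS, 37.8, 47.9 and 45.8 with Dex + LPS, and 16.9, 15.8 and 15.1 with Dex + dBRD9 + LPS. In experiment 1, which chose the gene, every Dex + LPS library was thus above every LPS library, while in experiment 2 every Dex library was below. Bst1, which makes related products, moved by -0.39 in experiment 2 (adjusted p = 0.16 by edgeR), chosen here after its value was seen. Phgdh, the first enzyme of serine synthesis, had 9.6 and 11.0 CPM with Dex + IFNg + LPS and 10.5 and 13.8 with the degrader (log2 fold change 0.24, adjusted p = 0.62 by edgeR).

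Secreted and plasma-type proteins had 13 members, of which 11 were tested and 3 fell. Hp, haptoglobin, which binds free haemoglobin, had 13.6 and 16.6 CPM in the Dex + IFNg + LPS libraries and 4.83 and 6.35 with the degrader, with at most 2.13 in the IFNg + LPS libraries. Its log2 fold change with the degrader was -1.43 (SE 0.28, adjusted p = 0.014 by edgeR). In experiment 1 its Dex + LPS libraries held 216, 145 and 160 CPM and those with dBRD9 added 45.1, 38.6 and 43.5, while LPS alone gave 2.53 to 4.43. Cp, ceruloplasmin, a copper-carrying ferroxidase, had 120 and 125 CPM with Dex + IFNg + LPS and 74.2 and 75.8 with the degrader (log2 fold change -0.71, SE 0.14, adjusted p = 0.014 by edgeR). Emilin1, a glycoprotein of elastic fibres, went from 67.4 and 60.0 to 42.2 and 39.7 CPM (log2 fold change -0.64, SE 0.13, adjusted p = 0.016 by edgeR). For each of these 3 genes the libraries with and without the degrader were separate. Tg, with the lowest ratio of the choice, had 10.4 to 12.1 CPM with Dex + LPS and 1.24 to 1.76 with dBRD9 added in experiment 1, but only 39 reads over experiment 2. Apoe had the most reads of the members in the Dex + LPS libraries, where it held 8070, 7020 and 6590 CPM, against 5200, 5660 and 5400 with dBRD9 added. In experiment 2 it had 5260 and 6550 CPM with Dex + IFNg + LPS and 7540 and 7000 with the degrader (log2 fold change 0.30, SE 0.16, adjusted p = 0.42 by edgeR). Against IFNg + LPS alone Dex gave no call for it (log2 fold change 0.01, adjusted p = 0.98 by edgeR).

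Surface receptors, adhesion molecules and sensors were the largest named group, with 19 members, all tested in experiment 2, and 3 fell. Mefv, which encodes pyrin, an inflammasome sensor, had 32.6 and 31.2 CPM with Dex + IFNg + LPS and 19.7 and 18.0 with the degrader (log2 fold change -0.76, SE 0.13, adjusted p = 0.0074 by edgeR). Nod1, a sensor of bacterial peptidoglycan, went from 252 and 233 to 165 and 166 CPM (log2 fold change -0.55, SE 0.10, adjusted p = 0.011 by edgeR). As for Cd38, there was no rise with Dex for Mefv or Nod1 in experiment 2. Their log2 fold changes were below 0 and did not pass the test (-0.09 and -0.21, adjusted p = 0.69 and 0.16 by edgeR). The other 10 of the 13 were called higher with Dex. The lectins Clec10a and Clec4d, of which the first binds galactose-type sugars, did not pass the test. Clec10a had 30.0 and 36.8 CPM with Dex + IFNg + LPS and 32.4 and 29.9 with the degrader, which overlap (log2 fold change -0.10, adjusted p = 0.79 by edgeR). Clec4d had 1290 and 1510 against 1200 in both libraries (log2 fold change -0.22, adjusted p = 0.47 by edgeR).

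Lipid-handling genes had 7 members, all tested, and 2 fell. Nr1h3, the liver X receptor alpha that senses oxysterols, had 23.6 and 20.8 CPM with Dex + IFNg + LPS and 11.7 and 11.3 with the degrader. IFNg + LPS alone gave 10.1 and 9.69 CPM and dBRD9 + IFNg + LPS 5.96 and 7.72. With the degrader present Dex thus still raised it (adjusted p under 0.05 by edgeR). For the degrader with Dex its log2 fold change was -0.95 (SE 0.16, adjusted p = 0.0061 by edgeR). In experiment 1 it had 98.2 to 112 CPM with Dex + LPS and 46.3 to 51.6 with dBRD9 added. Pla2g7, a secreted phospholipase that hydrolyses platelet-activating factor, had 96.5 and 99.0 CPM with Dex + IFNg + LPS and 66.7 and 67.2 with the degrader (log2 fold change -0.55, SE 0.12, adjusted p = 0.033 by edgeR). It shares 11.0% of its exon bases with 1700071M16Rik on the other strand, which was also called (3.29 and 2.3 CPM against 0.204 and 0.463), and without known strand their reads cannot be told apart. Plin2, which coats lipid droplets, had 390 and 414 CPM with Dex + IFNg + LPS and 414 and 406 with the degrader (log2 fold change 0.03, adjusted p = 0.94 by edgeR), although its experiment 1 values, 705 to 794 against 425 to 441, were fully separate.

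Kinases, phosphatases and small GTPase signalling had 13 members, 12 tested, and 1 fell. Fgr, a Src-family kinase, had 21.6 and 24.1 CPM with Dex + IFNg + LPS and 11.6 and 14.4 with the degrader (log2 fold change -0.81, SE 0.16, adjusted p = 0.021 by edgeR). Eef2k, the kinase that slows translation elongation, had 4.97 and 4.27 against 7.07 and 5.82 CPM, the highest log2 fold change of the members tested with at least 10 CPM in some group (0.48, SE 0.29, adjusted p = 0.48 by edgeR). Of 4 members in the cytoskeleton and junction group 1 fell: Tns1 had 793 and 582 CPM with Dex + IFNg + LPS and 374 in both libraries with the degrader (log2 fold change -0.88, SE 0.17, adjusted p = 0.013 by edgeR), with 9.57 and 13.1 in IFNg + LPS. Fam53b, without a role given here, had 57.4 and 48.5 against 28.2 and 33.2 CPM (log2 fold change -0.79, SE 0.18, adjusted p = 0.037 by edgeR). Ifitm2, of the interferon-induced membrane proteins, had 560 and 617 against 559 and 532 CPM, just separate, with a log2 fold change of -0.11 (adjusted p = 0.67 by edgeR).

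In 3 groups of members no gene passed the test for the degrader with Dex in experiment 2. The transcription and RNA-binding proteins (10 members, 9 tested) had a median log2 fold change of -0.04, the proteases and protease inhibitors (5 members) -0.37, and the G protein-coupled receptors and their regulators (8 members) 0.06. Tsc22d1, a leucine zipper protein, had 35.9 and 39.2 CPM with Dex + IFNg + LPS and 25.2 and 23.5 with the degrader, separate but not called (log2 fold change -0.63, SE 0.17, adjusted p = 0.093 by edgeR). Ctsl, the lysosomal protease cathepsin L, had 661 and 771 against 767 and 747 CPM. Gpr18 had 58.0 and 63.7 against 89.2 and 77.8 CPM (log2 fold change 0.45, SE 0.14, adjusted p = 0.15 by edgeR). Ctla2b, a protease inhibitor with a near-identical copy in Ctla2a, had at most 1.75 CPM in experiment 2, so its values there are uncertain.

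**Figure D3:**
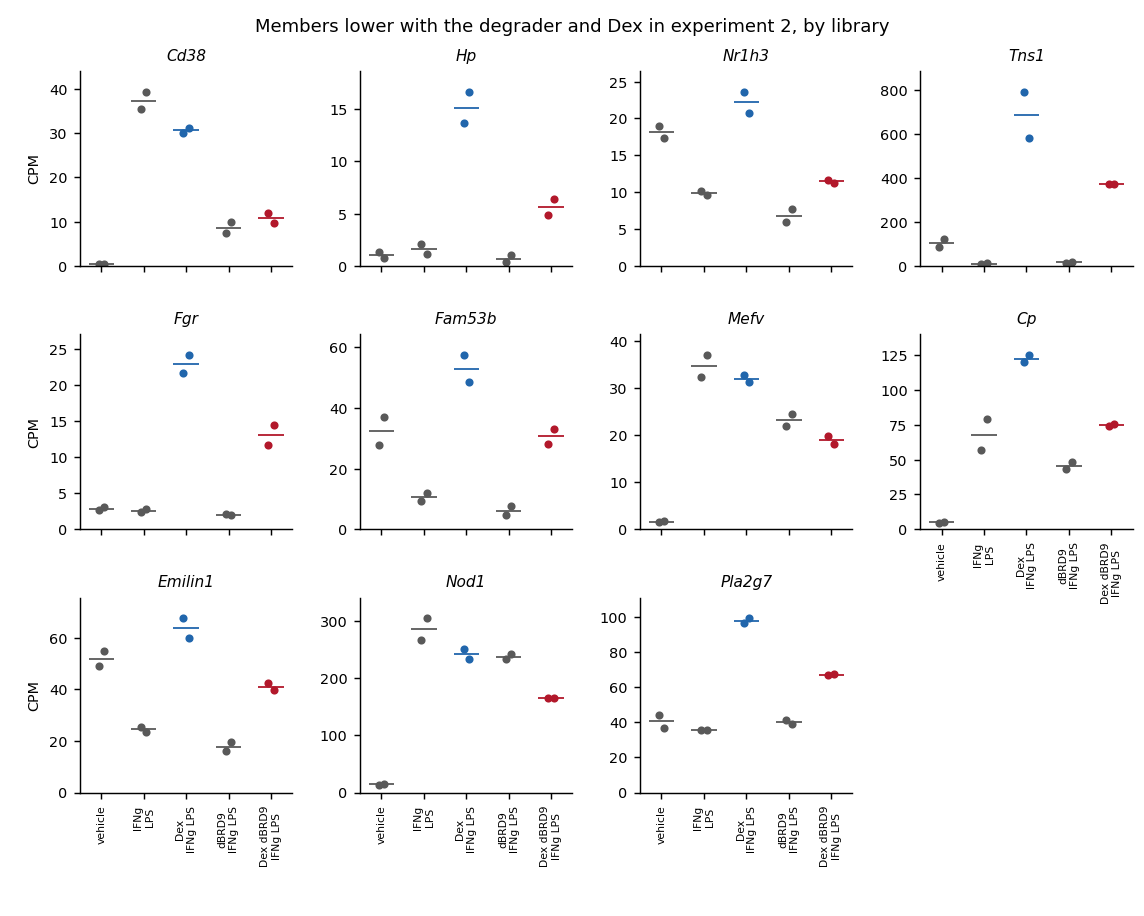
CPM (linear axis from 0) of 11 members with a gene name that were lower with Dex + dBRD9 + IFNg + LPS than with Dex + IFNg + LPS, in each library of experiment 2; points are libraries and bars are group means of 2. In every panel both red points (Dex + dBRD9) lie below both blue points (Dex), as for Cd38 with 12.0 and 9.78 against 30.1 and 31.2.

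Summed markers of other cell types, which were not tested, also differed between these libraries. The monocyte markers Ly6c2, Ccr2 and Vcan summed to 97.8 to 120.0 CPM in the Dex + IFNg + LPS libraries and 52.0 to 55.8 with the degrader, and in experiment 1 to 50.7 to 72.1 and 29.9 to 37.9, with none of the 3 at 0. Monocyte markers that are members, such as Chil3, were left out of these sums. Chil3 went the other way in experiment 2, with 4.57 and 4.94 CPM without the degrader and 6.6 and 5.88 with it. That difference did not pass the test. In experiment 1, which chose it, Chil3 was lower with the degrader. The 8 T and NK cell markers went from 53.6 to 61.1 down to 38.9 to 39.6 CPM in experiment 2, led by the kinase Lck, with Cd3e, Cd3g, Trac and Nkg7 at 0 in both groups. The 4 endothelial markers went from 9.82 to 11.7 down to 5.55 to 6.39 CPM, with Tek at 0. The 6 stromal markers went from 39.3 to 46.6 down to 32.8 to 38.4 CPM in experiment 2, with Lum at 0. In experiment 1 they went from 37.8 to 47.0 down to 14.8 to 17.0 CPM, led by Pdgfrb. There Col1a2 and Lum were at 0 in both groups, and Col3a1 also with the degrader. This sum was 0.387 to 0.545 CPM with vehicle in experiment 1 and 29.3 to 33.0 with LPS. The 4 megakaryocyte markers were higher in experiment 2, from 42.5 to 61.2 to 67.0 to 70.5 CPM with none at 0, and lower in experiment 1, from 30.5 to 44.1 to 18.1 to 23.8 with Gp9 at 0. Neutrophil markers overlapped (12.4 to 18.2 and 16.4 to 18.8 CPM), with Ly6g at 0 in both groups, as did dendritic cell markers (4.74 to 5.71 and 4.96 to 5.49 CPM, Cd209a at 0). B cell markers had 10.3 to 10.6 and 10.9 to 12.2 CPM with Ms4a1 and Pax5 at 0, and those of erythroid cells and of mast cells and basophils were under 1 CPM. With vehicle in experiment 2, the monocyte markers summed to 5.88 to 6.17 CPM and those of T and NK cells to 0.198 to 0.221. Endothelial markers had 2.86 to 4.16 CPM there. With IFNg + LPS these 3 sums were 168 to 187, 96.0 to 109 and 36.7 to 40.5 CPM. Stromal markers had 49.3 to 52.4 CPM with vehicle and 62.0 to 68.9 with IFNg + LPS, and megakaryocyte markers 80.6 to 114 and 63.6 to 69.9. Whether these cells or these genes have a part in the members' fall was not tested. In bulk RNA, fewer cells of a type and less RNA per cell cannot be told apart.

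Dex against no Dex in experiment 2 repeats the first ratio of the choice in new libraries. There, 66 of the 110 members tested were higher with Dex and 6 lower (edgeR, adjusted p under 0.05), where 10.7% of all genes were higher and 9.21% lower. The median log2 fold change of the members was 0.82 and that of all genes 0.03. Both Dex libraries were above both libraries without Dex for 82 members, as for 29.9% of all genes. They were below both for 13 members, a description, since no share of all genes is given for it. Of the 66, 7 are among the 9 members that reached the count minimum in Dex groups alone, and of the 101 others 59 were higher and 6 lower, with a median of 0.76. By role, without a test between roles, 6 of 7 lipid-handling members rose, 10 of 12 enzymes and transporters of small molecules, 10 of 12 kinases and phosphatases, 4 of 5 proteases and protease inhibitors, 9 of 19 surface receptors and 3 of 9 transcription and RNA-binding proteins. Tns1 rose by 5.96 (log2 scale, SE 0.22, adjusted p = 2.6e-11 by edgeR), from 9.57 and 13.1 CPM to 793 and 582. Fgr and Hp each rose by 3.20 (adjusted p = 1.1e-08 and 2.6e-06 by edgeR), and Gpr141, an orphan receptor, by 2.38 (adjusted p = 1.2e-07 by edgeR). Lyve1, the hyaluronan receptor of lymphatic endothelium and some tissue macrophages, was chosen here after its values were seen and was tested only because its Dex groups reached the count minimum. As a description, it had 0 and 0.0745 CPM with IFNg + LPS, 4.9 and 5.08 with Dex, and 5.1 and 5.29 with Dex and the degrader.

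The 6 members called lower with Dex in experiment 2 were Gfi1, Gja1, Ppp1r15a, Chil3, Ifi27l2a and Aoah. Gja1, connexin 43, had 165 and 178 CPM with IFNg + LPS and 68.4 and 62.6 with Dex. In experiment 1 it had 8.02 to 8.63 CPM with LPS and 12.6 to 14.2 with Dex + LPS. Gfi1, a transcriptional repressor, had 5.3 and 3.28 CPM with IFNg + LPS and 0.873 and 1.15 with Dex, against 25.3 to 29.1 and 42.3 to 46.2 in experiment 1. The experiments differ in stimulus and were fitted apart, and the direction in experiment 1 is fixed by the choice.

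With the degrader present, Dex raised 66 of the 110 members and lowered 5 (edgeR, adjusted p under 0.05), where 14.0% of all genes were higher and 14.4% lower. The median log2 fold change was 0.76 for the members and 0.05 for all genes. Without the 9 members that reached the count minimum in Dex groups alone, 61 of 101 were higher and 5 lower. Hp rose by 3.00 (log2 fold change, SE 0.41, adjusted p = 5.9e-05 by edgeR) and Tns1 by 4.39 (SE 0.20, adjusted p = 4.9e-10 by edgeR). For none of the 110 did the degrader's log2 fold change with Dex differ from that without Dex at an adjusted p under 0.05 (edgeR interaction term), where 0.00751% of all genes were called lower, 1 gene. At an unadjusted p under 0.05 the interaction was lower for 10 members and higher for 12, and DESeq2 called 4. No share of all genes is given for these counts, so nothing about the members is read from them. Tns1 had the most negative named value, -1.57 (SE 0.27, adjusted p = 0.10 by edgeR), since the degrader moved it by 0.68 without Dex and by -0.88 with it.

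Without Dex, the degrader lowered 17 members and raised 1 in experiment 2, where 1.01% of all genes were called lower and 0.819% higher (edgeR). The member that rose was Hmga2 (log2 fold change 0.66, adjusted p = 0.02 by edgeR), a chromatin protein, named here after its value was seen. The median log2 fold change was -0.13 against 0 for all genes, and both degrader libraries lay below for 42 members, as for 22.4% of all genes. Of the 17, 3 are among the 13 that fell with Dex, Cd38 and Mefv included (Mefv, log2 fold change -0.58, adjusted p = 0.033 by edgeR). Among the other 14 were Clec10a (25.8 and 31.8 against 17.7 and 17.3 CPM, adjusted p = 0.02 by edgeR) and Gpr141 (6.71 and 5.74 against 3.68 and 2.06 CPM, adjusted p = 0.02 by edgeR). The surface receptor group held 6 of the 17. Leaving out 1 of the 4 libraries compared left 5 to 8 calls.

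**Figure D4:**
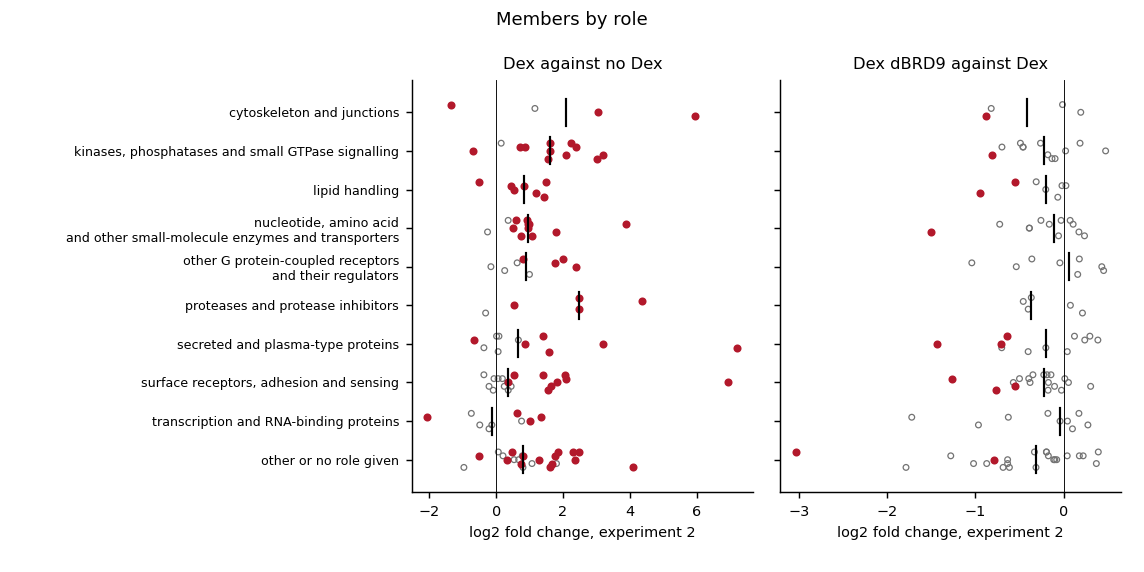
Log2 fold change of each tested member in experiment 2, by role, for Dex against no Dex (left) and Dex + dBRD9 against Dex (right); filled points passed the test (adjusted p under 0.05, edgeR), open points did not, and vertical bars are group medians. On the left 66 points to the right of 0 are filled, and on the right 13 points, all below 0.

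In experiment 1 the inhibitor groups were not used by the choice. With iBRD9 present in both groups, Dex raised 112 of the 115 members and lowered 0 (edgeR, adjusted p under 0.05). Among all genes 25.7% were higher and 24.1% lower by that test. At an unadjusted p under 0.05 the members gave 112 and 0, and DESeq2 called 109 and 0, with no share of all genes given. The median log2 fold change was 1.98 (all genes, 0.02), and all 3 Dex libraries lay above for 110 members, as for 30.7% of all genes. The 3 not called were Hilpda, Cdr2 and Rtl8a. Hp had 0.0338 to 0.291 CPM with iBRD9 + LPS and 32.5 to 38.6 with Dex + iBRD9 + LPS (log2 fold change 7.92, SE 0.29, adjusted p = 3e-16 by edgeR). Gpr141 had 0.0338 to 0.166 and 15.7 to 18.1 CPM (log2 fold change 7.68, SE 0.24, adjusted p = 1.7e-17 by edgeR), and Tns1 6.28 to 7.28 and 751 to 806 CPM (6.85, SE 0.12, adjusted p = 1.4e-21 by edgeR). For Hp and Gpr141 the group without Dex was under 1 CPM, so these folds depend on the prior count of the fit.

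The remaining comparisons of experiment 1 share a group with the choice and are given as a description. The Dex + iBRD9 + LPS group was compared with the same Dex + LPS libraries that chose the members, which favours falls: 105 members were called lower and 1 higher (AW112010), where 18.0% of all genes were lower and 16.7% higher. Nr1h3 had 48.1 to 60.1 CPM there, Mefv 12.7 to 14.5 and Cd38 17.1 to 18.8, each below all Dex + LPS libraries, and with dBRD9 in place of iBRD9 they had 46.3 to 51.6, 18.9 to 23.3 and 15.1 to 16.9. Apoe had 6460 to 6700 CPM with Dex + iBRD9 + LPS, which overlaps the 6590 to 8070 of Dex + LPS. Tns1 had 751 to 806 CPM with iBRD9 and 506 to 569 with dBRD9, both added to Dex. The dose of iBRD9 is not known per sample, so no difference between the compounds was tested.

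Without Dex, in comparisons that share the LPS group with the choice, which favours rises, dBRD9 + LPS had 72 members lower and 0 higher than LPS (all genes, 9.97% lower and 6.64% higher; at an unadjusted p under 0.05, 81 and 0, and DESeq2 called 72 and 0). The iBRD9 + LPS group had 84 lower and 9 higher (all genes, 30.5% and 31.4%), and 63 members were lower with both compounds. Both comparisons use the same LPS libraries, which favours shared calls, and the share of all genes lower with both is not given. Shares at an unadjusted p or by DESeq2 are not given either. Mefv went from 38.7 to 43.3 CPM with LPS to 8.38 to 10.3 with dBRD9 and 0.676 to 0.774 with iBRD9. Fgr had 20.4 to 22.2 CPM with LPS, 18.6 to 18.8 with dBRD9 and 1.08 to 1.25 with iBRD9.

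**Figure D5:**
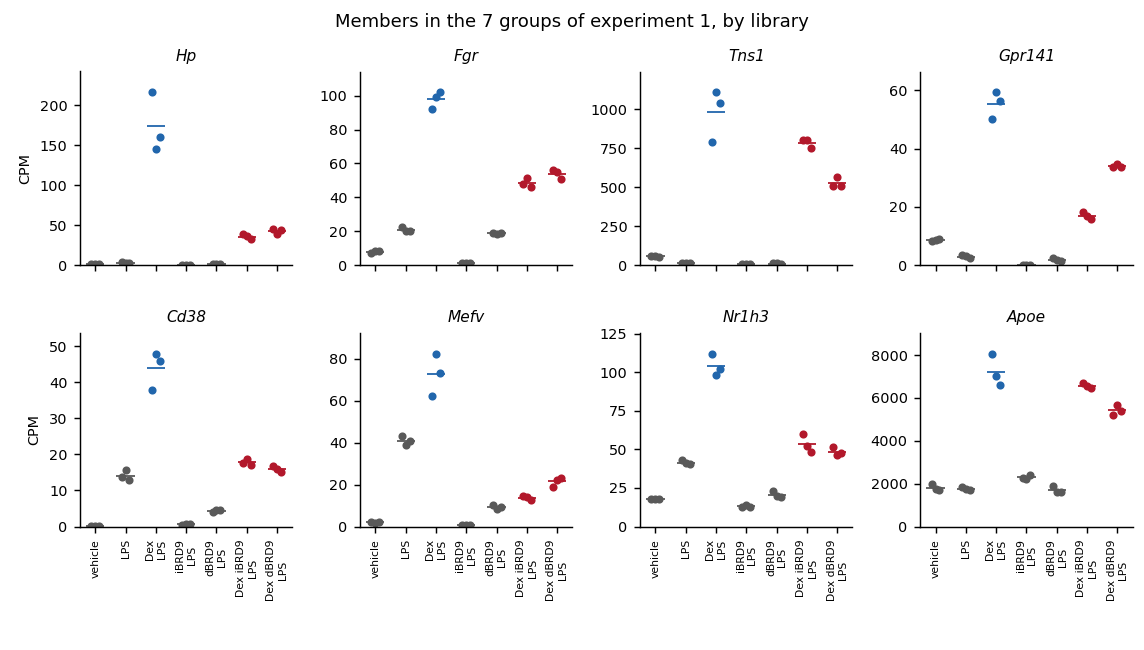
CPM (linear axis from 0) of 8 members in each library of the 7 groups of experiment 1; points are libraries and bars are means of 3. The blue Dex + LPS points and the LPS and Dex + dBRD9 + LPS points were used to choose the genes; Hp, for example, has 145 to 216 CPM with Dex + LPS and 32.5 to 38.6 with Dex + iBRD9 + LPS.

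The stimulus alone moved the members both ways, as it did all genes. LPS against vehicle in experiment 1, which shares the LPS group with the choice and so favours falls, had 57 members higher and 39 lower, where 36.1% of all genes were higher and 39.3% lower. In experiment 1 this was 49.6% of the members higher and 33.9% lower. IFNg + LPS against vehicle in experiment 2 had 40 higher and 37 lower of 110 (36.4% and 33.6%). Among all genes 32.8% were higher and 35.6% lower there, near the members' shares, so nothing particular to the members is read from these counts. With library totals in place of TMM factors these counts became 48 higher and 54 lower, and 27 and 56, since the median of all genes then shifted to -0.56 and -0.76. Cd38 was at 0.149 to 0.186 CPM with vehicle and 12.9 to 15.7 with LPS, and at 0.398 and 0.543 against 35.4 and 39.3 in experiment 2. Plin2 went the other way, from 955 to 984 to 389 to 408 CPM with LPS.

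Among 40 glucocorticoid receptor targets listed beside the members, 39 are no members. In experiment 2, 3 of the 37 tested were lower with dBRD9 and Dex (Fpr1, Fpr2 and Rgs2) and 1 was higher (Zfp36, which destabilises cytokine mRNA), where 1.16% of all genes were lower and 0.233% higher. Fpr1 and Fpr2, formyl peptide receptors, fell by 1.70 and 1.47 on the log2 scale (adjusted p = 0.0074 and 9.5e-05 by edgeR). Dex raised 14 of the 37 and lowered 5 there, where 10.7% of all genes were higher and 9.21% lower. Tsc22d3, which encodes GILZ, rose by 6.72 and Fkbp5, a receptor co-chaperone, by 4.59 on the log2 scale with Dex (adjusted p = 5.2e-14 and 4.2e-13 by edgeR). For the degrader with Dex neither passed the test (log2 fold changes -0.10 and -0.18, adjusted p = 0.69 and 0.42 by edgeR). The mRNA of the receptor, Nr3c1, had a log2 fold change of 0.14 with the degrader and Dex (adjusted p = 0.73 by edgeR). Of 15 BAF subunit genes, 0 were lower and 1 higher in that comparison: Bicral, a subunit of the non-canonical complex (log2 fold change 1.01, adjusted p = 0.046 by edgeR). Brd9 itself was at -0.10 (adjusted p = 0.82 by edgeR).

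The same lists in experiment 1 rest on the Dex + LPS and Dex + dBRD9 + LPS libraries that chose the members, and are a description. There, 13 of the 36 receptor targets tested were called lower with dBRD9 added to Dex and 0 higher, where 9.28% of all genes were lower and 6.51% higher. Of the 13, Fpr1, Fpr2, Stab1, Tgm2, Sgk1, Cebpd and Thbs1 were left out of the members by name. Il10, an anti-inflammatory cytokine, was also among them with a log2 fold change of -2.16, and was at -0.01 in experiment 2. Bicral was at 1.33 and Brd9 at -0.08.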

How the data were processed

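Bulk RNA of 31 libraries was analysed, from unnormalised counts for each Ensembl gene, in 1 table per experiment as deposited by the authors. No column was left unused (0). The submitters' processing notes name fastp, STAR, DESeq2 and mm10, with neither versions nor roles. How reads were counted, on which annotation and with which strand is not given in the sources used here. Symbols and positions came from GENCODE M21 (mm10), with 97.77% and 99.77% of identifiers matched.

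Groups follow the labels. Each experiment was fitted alone with edgeR 4.0.16 (R 4.3.3): filterByExpr by group (minimum count 10, minimum total 15), TMM factors, quasi-likelihood F tests, Benjamini-Hochberg adjustment over all genes tested. The standard error is the log2 fold change divided by the square root of F. The fit was tested on simulated data. DESeq2 1.42.0, other scalings, no filter, only the groups compared, a replicate block and leaving out libraries were tried. The common biological coefficient of variation was 6.79% and 10.6%.

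The members, the lists of receptor targets, BAF subunits and cell markers, and the tests were chosen with earlier results of these data known, and roles were assigned by hand once the members were known. Among members with a gene name and at least 10 CPM in some group, those named are the 8 with the lowest second ratio, up to 12 called for the degrader with Dex in experiment 2, the 4 uncalled with the highest value there, the 6 with most reads in the Dex + LPS libraries, and the 4 largest for Dex with iBRD9; others are marked as chosen after their values were seen or belong to a count of few genes. Deviations of same-numbered libraries correlated most for Dex + dBRD9 + LPS against Dex + LPS (r = 0.469, 0.156 and 0.238), which the choice used. Lower values, above 0 in every pair, were seen for Dex + iBRD9 + LPS against Dex + LPS (0.108, 0.0419 and 0.0703). The same held for Dex + dBRD9 + LPS against dBRD9 + LPS (0.0952, 0.1 and 0.00768) and for IFNg + LPS against vehicle (0.15). With 2 libraries a group, both pairs of experiment 2 give the same value by construction, so it counts only once. Every other comparison had a pair below 0, and the labels name no shared mouse or day. Items withheld from this text are not reported here, also where the rule names them.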

Additional observations from a re-analysis of the deposited data

Results flagged for a closer look

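For 6 members (5.45% of the 110 tested) a fall with Dex passed the test in experiment 2 (edgeR, adjusted p under 0.05). Among all genes 9.21% were called lower, a larger share. The libraries of these 6 did not overlap, while the choice required a rise with Dex in experiment 1. The log2 fold changes of Dex + IFNg + LPS against IFNg + LPS were -2.06 for Gfi1, -1.37 for Gja1, -0.70 for Ppp1r15a, -0.68 for Chil3, -0.50 for Ifi27l2a and -0.50 for Aoah. Ppp1r15a, which directs a phosphatase to the translation factor eIF2, had 228 and 240 CPM with IFNg + LPS and 148 and 135 with Dex. Aoah, which removes acyl chains from LPS, had 247 and 250 against 166 and 180. Ifi27l2a had 226 and 216 against 139 and 167, and Chil3, a chitinase-like protein, 7.99 and 7.45 against 4.57 and 4.94. In experiment 1 their Dex + LPS libraries held 391 to 477, 141 to 151, 74.5 to 107 and 26.8 to 29.6 CPM, and the LPS libraries 265 to 276, 70.9 to 80.3, 53.1 to 61.3 and 2.87 to 3.93. The difference between the experiments was not tested. The direction in experiment 1 follows from how the genes were chosen, so these 6 are only those that turned and passed the test.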

How the results depend on the processing

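Of the fall with dBRD9 and Dex in experiment 2 (13 members), 21 were called with no filter on low counts and 25 (1 higher) with only the 2 groups fitted, and 2 to 12 with 1 library left out. The 13 were all among the calls with no filter, with only the groups compared, with DESeq2 (17), with DESeq2 size factors (14) and with library totals (13). Shares of all genes under these other settings are not given, so the counts show only how the members' calls moved. With the replicate block 11 remained, without Pla2g7 and 1700071M16Rik, and the numbers share no more than a number there. The interaction had 5 calls with no filter, 4 with DESeq2, 5 with only the groups compared, 0 with the replicate block and 0 to 1 with 1 library left out. The fall with dBRD9 without Dex (17) gave 13 with the replicate block and 5 to 8 with 1 library left out. IFNg + LPS against vehicle had 56 members lower with library totals. That scaling turned the balance for the stimulus: the members' median log2 fold change went from 0.01 to -0.59, and for LPS from 0.28 to -0.21. Thresholds of 2 and 0.67 gave 56 members, of which 35 rose with Dex and 9 fell with the degrader and Dex in experiment 2. The number of members was 93 with library totals, 116 with no 0.5 added, 110 to 129 with 1 library left out, 113 with the minimum applied before adding 0.5 and 114 without both libraries that stood apart by gene length. The last 2 were chosen after seeing the data. The 114 held 12 that fell with the degrader and Dex and 67 that rose with Dex in experiment 2, and experiment 1 refitted without those libraries had 112 members raised by Dex with iBRD9. With 1 library left out, Dex in experiment 2 raised 51 to 61 members, 49 to 56 with the degrader present. Without the 9 members at the count minimum in Dex groups alone, also chosen after seeing the data, 12 fell, 59 rose with Dex, and 61 rose with the degrader present. With 2 libraries a group, a lone library left after leaving 1 out is assumed to vary like the other groups.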
